A study of Homo sapiens with 8 samples.

Results

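The genes followed here mark or sustain stem-like cells, and were measured in xenograft tumours of SK-OV-3, a human ovarian cancer cell line. They are the retinaldehyde dehydrogenases ALDH1A1, ALDH1A2 and ALDH1A3, the surface protein gene PROM1, the transcription factor genes SOX2, SOX9 and KLF4, and LIN28B. The members were taken by gene symbol, and each of the 8 had 1 transcript cluster (a group of probes that reports 1 gene) among 17709 named clusters. RNA of 8 tumours was measured with 1 expression array each. In 4 tumours the SK-OV-3 cells carried pIND_BORA, a vector that overexpresses BORA, and in 4 they carried the empty vector pIND_EV (EV). All tumours grew in nude mice, which lack a thymus and mature T cells but keep other leukocytes. The labels name no inducing agent, no age of the animals, and do not say whether a group came from 1 or several transfected pools or whether each tumour had its own animal, so the p-values rest on a spread between samples that could be technical alone.

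Retinaldehyde dehydrogenases oxidise retinaldehyde to retinoic acid, the ligand of nuclear receptors that switch on differentiation genes, and ALDH activity is widely used to sort stem-like cells from ovarian tumours. PROM1 encodes CD133, a membrane protein of cell protrusions that is used for the same purpose. SOX2 and KLF4 belong to the set of factors that can reprogramme somatic cells to pluripotency, SOX9 maintains progenitors in several epithelia and directs cartilage formation, and LIN28B blocks maturation of the let-7 microRNAs.

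None of the 8 genes passed the test between BORA and EV tumours, and 7 of them failed to reach, on any array, the level that 95% of its negative control rows lay under (their 95th percentile). That level was likewise not reached on any array by 52.1% of all named clusters. SOX9 was the member above that percentile, though not above the 99th, at 9.36 ± 0.31 in BORA tumours and 9.26 ± 0.38 in EV tumours (log2 level, SD, n = 4 each). ALDH1A1 and SOX2 had higher values in BORA tumours, by 0.84 and 0.77 on the log2 scale, but at levels under that percentile, and the adjusted p-values were 0.129 and 0.266 in limma, a linear model fitted over all clusters. The other 5 dim members differed by at most 0.38 in either direction.

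The labels were checked on BORA itself, a cofactor of mitotic entry. Its log2 level was 12.57, 12.55, 12.91 and 13.00 in BORA tumours, against 6.16, 6.15, 6.89 and 7.32 in EV tumours, which lay below the percentile, so that BORA was at least 27.0-fold higher (limma adjusted p = 2.38e-05). The 95th percentile of the 612 negative control rows lay between 7.62 and 8.13 in BORA arrays and between 7.82 and 8.24 in EV arrays, and 36.3% to 44.3% of the named clusters exceeded it. EV replicate 1 stood apart, with correlations of 0.943 to 0.954 to the other arrays, which correlated with each other at 0.981 to 0.992. All 13 measured squamous epithelial markers were highest in that array, where their summed signal was 18.70 on the log2 scale, against 12.91 to 15.05 in BORA tumours and 13.15 to 14.03 in EV replicates 2 to 4. Each member's difference is therefore given over all 8 arrays and over the 7 arrays without EV replicate 1, and that of another named gene over 8, with the value over 7 where the call or the sign changed or the log2 difference moved by over 1.5 times. Of the 11 measured markers of ovarian carcinoma and simple epithelium 7 exceeded the percentile on all 8 arrays, PAX8, EPCAM and KRT8 among them, and 2, WT1 and MUC16, on no array. In tumour RNA, fewer cells of a kind and less RNA per cell cannot be told apart.

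The promoters of ALDH1A1 and SOX2, the members with the largest differences, are printed here from RefSeq (GRCh38.p14), each 300 bases long and 5′ to 3′ on the strand of the gene. Capitals mark 3 promoter elements searched on both strands, the CCAAT box (CCAAT), the GC box (GGGCGG) and the TATA box (TATAAA), with overlapping matches counted.
ALDH1A1: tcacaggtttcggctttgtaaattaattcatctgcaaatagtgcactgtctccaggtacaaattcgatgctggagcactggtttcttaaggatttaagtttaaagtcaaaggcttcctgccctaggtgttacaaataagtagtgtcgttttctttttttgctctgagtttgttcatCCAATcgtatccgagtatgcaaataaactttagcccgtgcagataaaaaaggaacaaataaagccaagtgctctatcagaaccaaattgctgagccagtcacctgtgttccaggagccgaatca
SOX2: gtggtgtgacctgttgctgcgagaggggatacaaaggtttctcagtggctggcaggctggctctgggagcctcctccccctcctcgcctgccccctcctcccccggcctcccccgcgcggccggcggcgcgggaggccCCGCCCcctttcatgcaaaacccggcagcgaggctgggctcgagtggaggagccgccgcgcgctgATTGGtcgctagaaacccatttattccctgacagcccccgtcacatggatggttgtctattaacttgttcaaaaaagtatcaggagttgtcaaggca

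The ALDH1A1 window (chr9:72953004-72953303, minus strand) held 1 CCAAT box on the strand of the gene, which began 74 bases before the start, and neither of the other elements. It was poor in G and C (40.3%, where the median of all promoters was 58.7%) and held 7 CpG dinucleotides. The SOX2 window (chr3:181711675-181711974, plus strand) held 1 CCAAT box and 1 GC box, both on the opposite strand, and 20 CpG dinucleotides at 63.3% G and C. Of 35116 RefSeq promoters of the same length, 34.6% held a CCAAT box, 45.0% a GC box and 11.5% a TATAAA element. The tables held windows for 7 of the 8 members. These matches describe the sequence and were not tested against the array values.

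Among the retinaldehyde dehydrogenases, ALDH1A1 was the member whose groups did not overlap. Its log2 level was 5.83, 5.56, 5.83 and 5.24 in BORA tumours, against 4.62, 4.92, 4.62 and 4.93 in EV tumours. Every BORA tumour lay above every EV tumour, and EV replicate 1 lay inside the EV range. The difference was 0.84 (SE 0.18, 95% interval 0.45 to 1.24; limma adjusted p = 0.129), and 0.79 without EV replicate 1 (SE 0.19, limma adjusted p = 0.10001), so ALDH1A1 did not pass in either fit. Because all 8 values lay below the percentile of their array, by at least 1.82, no fold is given. Groups that do not overlap were found at 9.36% of all clusters over 8 arrays, and at 1 of the 8 members. Over 7 arrays the background was 14.3%, and the count was again 1 of 8.

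ALDH1A2, the enzyme that supplies retinoic acid in the early mouse embryo, was the dim member nearest to the percentile. Its log2 level was 7.48, 7.09, 7.23 and 7.29 in BORA tumours, against 7.41, 7.27, 7.78 and 6.81 in EV tumours. The BORA values lay inside the EV range, and the EV values spread more widely (SD 0.40, against 0.16 in BORA tumours). The difference was -0.042 (95% interval -0.51 to 0.42; limma adjusted p = 0.940), and -0.011 without EV replicate 1 (limma adjusted p = 0.989).

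ALDH1A3, the isoform tied to ALDH activity in breast and brain tumours, was at 5.85, 5.64, 6.27 and 5.67 in BORA tumours and at 5.47, 5.87, 5.91 and 5.55 in EV tumours on the log2 scale. The groups overlapped, with the highest value in BORA replicate 3. The difference was 0.16 (95% interval -0.26 to 0.58; limma adjusted p = 0.719), and 0.079 without EV replicate 1 (limma adjusted p = 0.882).

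**Figure D1:**
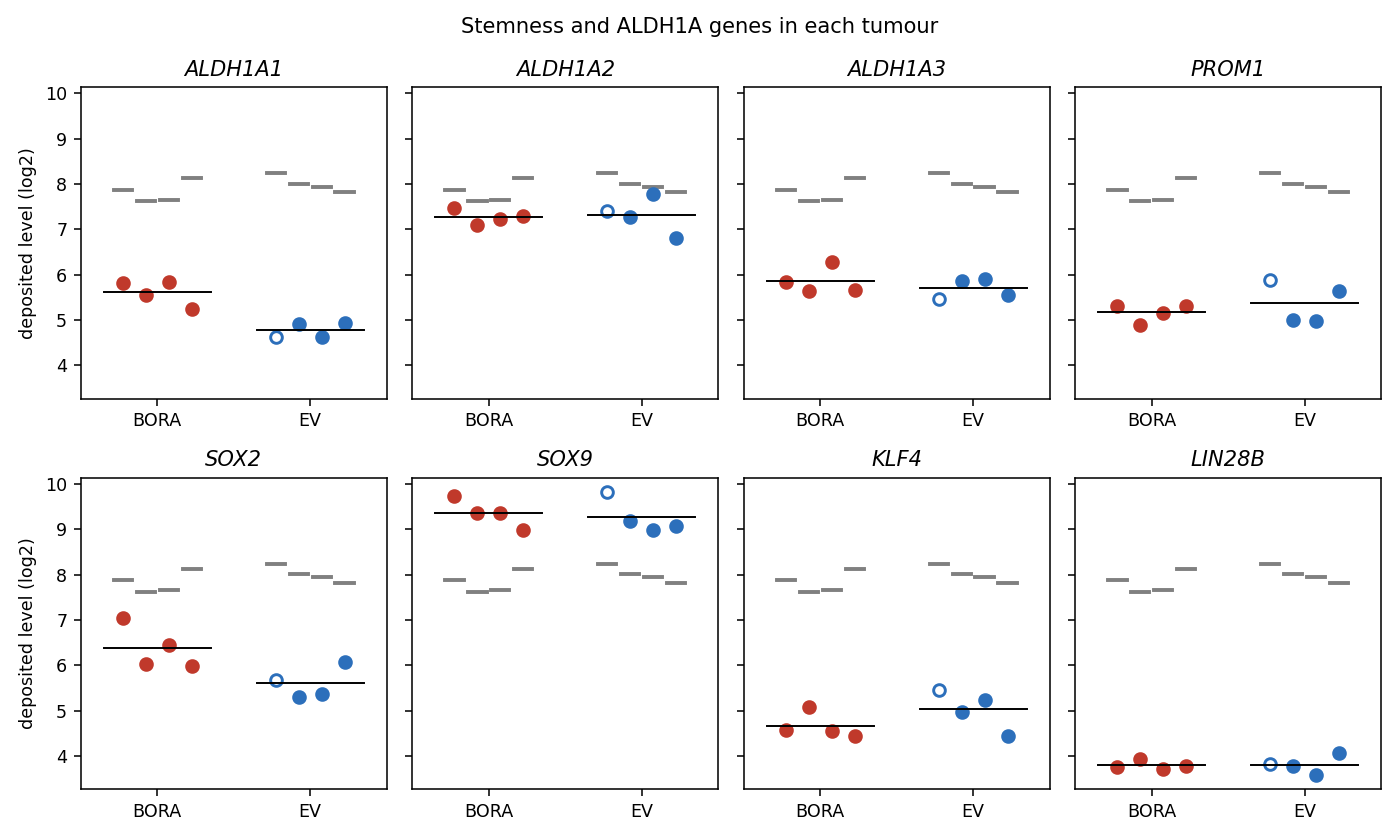
Deposited log2 level (vertical axis) of each member in each tumour, with BORA replicates 1 to 4 at the left and EV replicates 1 to 4 at the right of each panel. Points are tumours (EV replicate 1 is open), black lines are group means, and grey bars are the 95th percentile of the negative controls of that array; SOX9 is the member above the bars, and ALDH1A1 the member whose groups do not overlap.

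PROM1 was at 5.32, 4.90, 5.15 and 5.32 in BORA tumours, against 5.89, 5.01, 4.98 and 5.65 in EV tumours on the log2 scale. The highest value was that of EV replicate 1, and the BORA values overlapped with the EV range. The difference was -0.21 (95% interval -0.72 to 0.31; limma adjusted p = 0.693) and -0.041 without EV replicate 1 (95% interval -0.49 to 0.41). A range above 1 log2 unit was seen for ALDH1A1, SOX2 and KLF4 over the 8 arrays, while that of PROM1 was 0.98.

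SOX2 had the widest range of the members, 1.74. Its log2 level was 7.03, 6.03, 6.46 and 5.99 in BORA tumours, against 5.67, 5.29, 5.36 and 6.08 in EV tumours. EV replicate 4 lay above BORA replicates 2 and 4, so the groups overlapped. The difference was 0.77 (SE 0.27, 95% interval 0.17 to 1.37; limma adjusted p = 0.266), and 0.80 without EV replicate 1 (SE 0.28, limma adjusted p = 0.219). SOX2 and ALDH1A1 were the 2 members with an unadjusted limma p under 0.05, a share of the members to be set beside 14.5% of all clusters, and SOX2 stayed below the percentile on every array by at least 0.84.

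SOX9 exceeded the percentile on all 8 arrays, by 0.86 at the least, and the 99th percentile on none. Its log2 level was 9.73, 9.36, 9.35 and 8.98 in BORA tumours, against 9.82, 9.17, 8.98 and 9.07 in EV tumours. EV replicate 1 held the highest value, 0.65 above the next EV tumour, and BORA replicate 1 the second. SOX9 was 1.07-fold as high in BORA tumours (95% interval of the fold 0.75 to 1.52; log2 difference 0.094, SE 0.23, limma adjusted p = 0.870). Without EV replicate 1 the log2 difference was 0.28 (95% interval -0.14 to 0.70; limma adjusted p = 0.528), and without BORA replicate 1 it was -0.032. Among 7369 other clusters above the percentile on at least 4 arrays, the profiles closest to that of SOX9 were those of ARV1, BRAP and ZHX1. After each profile was centred on its own mean, they differed from SOX9 by a root mean square of 0.11, 0.13 and 0.13 log2 units over the 8 arrays.

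KLF4 was at 4.56, 5.07, 4.54 and 4.43 in BORA tumours, against 5.46, 4.98, 5.23 and 4.45 in EV tumours on the log2 scale. The EV values were higher on average, but EV replicate 4 lay at the BORA level. KLF4 is also a factor of squamous differentiation, and a link of its values to the squamous markers was not tested. All its values lay below the percentile, and the highest was that of EV replicate 1, the array with high squamous markers. The difference was -0.38 (95% interval -0.91 to 0.16; limma adjusted p = 0.491), and -0.23 without that array (limma adjusted p = 0.667).

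LIN28B had the narrowest range, 0.48. Its log2 level was 3.77, 3.94, 3.71 and 3.78 in BORA tumours, against 3.82, 3.78, 3.58 and 4.06 in EV tumours. Between 21.6% and 36.6% of the negative control rows of the arrays lay below it, so its values sat in the lower part of the background. The difference was -0.0090 (95% interval -0.34 to 0.32; limma adjusted p = 0.984), and -0.0054 without EV replicate 1 (limma adjusted p = 0.992).

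**Figure D2:**
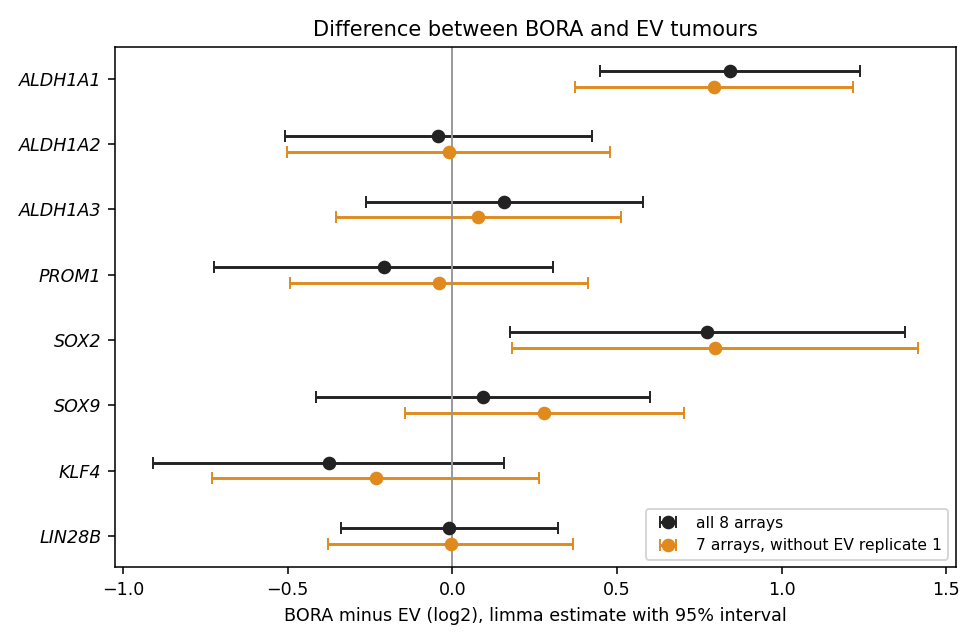
Difference of each member (BORA minus EV, log2, horizontal axis) with its 95% interval from limma, not adjusted for the number of clusters, over all 8 arrays (black) and over 7 arrays without EV replicate 1 (orange). The intervals of ALDH1A1 and SOX2 lie above 0 in both fits, and those of the other 6 members include 0.

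Over the members, 4 differences were above 0 and 4 below, with a median of 0.042 over 8 arrays and 0.037 over 7, where the median of all clusters was -0.026 and -0.029. The members past an adjusted p of 0.05 numbered 0 of 8 in limma over 8 arrays, where 0.102% of all clusters passed, and 0 of 8 over 7 arrays, where 0.514% passed. In each fit 2 members had an unadjusted p under 0.05, and 15.3% of all clusters did over 7 arrays. Dim clusters tended to be lower in BORA arrays: of the 9224 clusters below the percentile on all 8 arrays, 69.1% had a lower mean there, with a median difference of -0.12.

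Genes of the same pathways were described through 8 further lists with 135 distinct measured genes, chosen with earlier results of these data known. Over all genes tested 0 of 135 passed the limma threshold, over 8 arrays and over 7. At an unadjusted limma p under 0.05 there were 12 (8.89%), and the groups did not overlap at 8 (5.93%), both shares below those of all clusters. The percentile was exceeded on all 8 arrays by 42 of these genes and on none by 72, where the counts over all 17709 named clusters were 5741 and 9224.

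The other aldehyde dehydrogenases numbered 16, with a median difference of 0.19 over 8 arrays (0.12 over 7) and 0 past the threshold. ALDH1L1, a folate enzyme, had the smallest p and values of 6.03, 6.32, 6.02 and 6.20 in BORA tumours, against 7.52, 6.46, 7.19 and 6.92 in EV tumours, below the percentile throughout (log2 difference -0.88, limma adjusted p = 0.175). The groups of ALDH1L1 did not overlap, with BORA tumours lower. ALDH9A1, which oxidises aminoaldehydes, was at 8.92, 9.01, 8.22 and 8.58 in BORA tumours and at 8.21, 8.31, 8.11 and 8.28 in EV tumours (log2 difference 0.45, limma adjusted p = 0.323). The 3 ALDH1A members exceeded the percentile on no array. Of the 16 enzymes of this list 5 exceeded it on all arrays and 8 on none, where 5741 and 9224 of the 17709 named clusters did. Among these 5 were ALDH2, the mitochondrial acetaldehyde enzyme (9.11 ± 0.36 in BORA tumours and 9.14 ± 0.68 in EV tumours, log2 level, SD, n = 4 each), and ALDH3A2, the fatty aldehyde enzyme (10.63 ± 0.29 in BORA tumours and 10.59 ± 0.31 in EV tumours), both chosen after their values were seen.

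Of the genes of retinoid uptake, synthesis and breakdown 16 were measured, with a median difference of -0.10 and 0 past the threshold. RDH11, a retinal reductase, was at 10.06, 9.77, 9.80 and 9.56 in BORA tumours, against 9.17, 9.44, 9.53 and 8.65 in EV tumours. Its groups did not overlap (log2 difference 0.60, limma adjusted p = 0.275). ADH4, an alcohol dehydrogenase, was at a log2 difference of -0.24 at background levels. Of 13 measured retinoic acid receptors and target genes 0 passed, with a median of -0.038 (-0.068 over 7 arrays). PLAAT4, a retinoid-inducible tumour suppressor also named RARRES3, was at 9.31, 8.54, 9.36 and 9.32 in BORA tumours, against 5.70, 8.13, 8.70 and 8.23 in EV tumours. Its difference was 1.44 over 8 arrays (limma adjusted p = 0.305) and 0.78 without EV replicate 1, the lowest array (limma adjusted p = 0.164). The PLAAT4 value of EV replicate 1 lay below the percentile. HOXB1 was at -0.27, below the percentile.

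The pluripotency list had 14 measured genes, a median difference of -0.15 and 0 past the threshold, with 12 genes below the percentile on all arrays. TBX3, a T-box factor of pluripotent and limb progenitor cells, was at 4.79, 5.55, 5.28 and 4.89 in BORA tumours, against 4.26, 4.26, 4.28 and 4.43 in EV tumours. The groups did not overlap, at background levels (log2 difference 0.82, limma adjusted p = 0.147). PRDM14 was at -0.38, below the percentile. In the LIN28 and let-7 list, with 14 measured genes, a median of 0.028 (0.0023 over 7 arrays) and 0 past the threshold, the let-7 target genes IGF2BP1 and HMGA2 had the smallest p. IGF2BP1 was at a log2 difference of -0.47 (limma adjusted p = 0.292), below the percentile. HMGA2, a chromatin protein gene, was at 9.35, 9.91, 10.47 and 9.42 in BORA tumours, against 7.19, 9.61, 8.58 and 9.49 in EV tumours. Its difference was 1.07 over 8 arrays (limma adjusted p = 0.365) and 0.56 without EV replicate 1, the lowest array. The HMGA2 value of that array lay below the percentile.

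Stem cell surface markers numbered 15, with a median of -0.14 and 0 past the threshold. CD44, the hyaluronan receptor, was at 13.49, 13.75, 13.93 and 13.76 in BORA tumours, against 15.11, 14.05, 14.15 and 13.93 in EV tumours. Its groups did not overlap (log2 difference -0.58, limma adjusted p = 0.340), and the difference was -0.31 without EV replicate 1. THY1 was at -0.42, below the percentile. The other SOX and KLF genes numbered 30, with a median of -0.12 (-0.048 over 7 arrays), 0 past the threshold and 20 below the percentile on all arrays. SOX15 (-0.50, below the percentile) and KLF16 (0.40) had the smallest p of that list. Of 18 other self-renewal regulators, with a median of 0.011 (0.20 over 7 arrays), 0 passed. AXIN2, a Wnt target gene and feedback inhibitor, was at 6.19, 6.17, 5.62 and 5.70 in BORA tumours, against 4.76, 5.35, 4.76 and 4.85 in EV tumours, again without overlap at background levels (log2 difference 0.99, limma adjusted p = 0.129). GLI1, a Hedgehog factor, was at -0.75, below the percentile (limma adjusted p = 0.239).

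**Figure D3:**
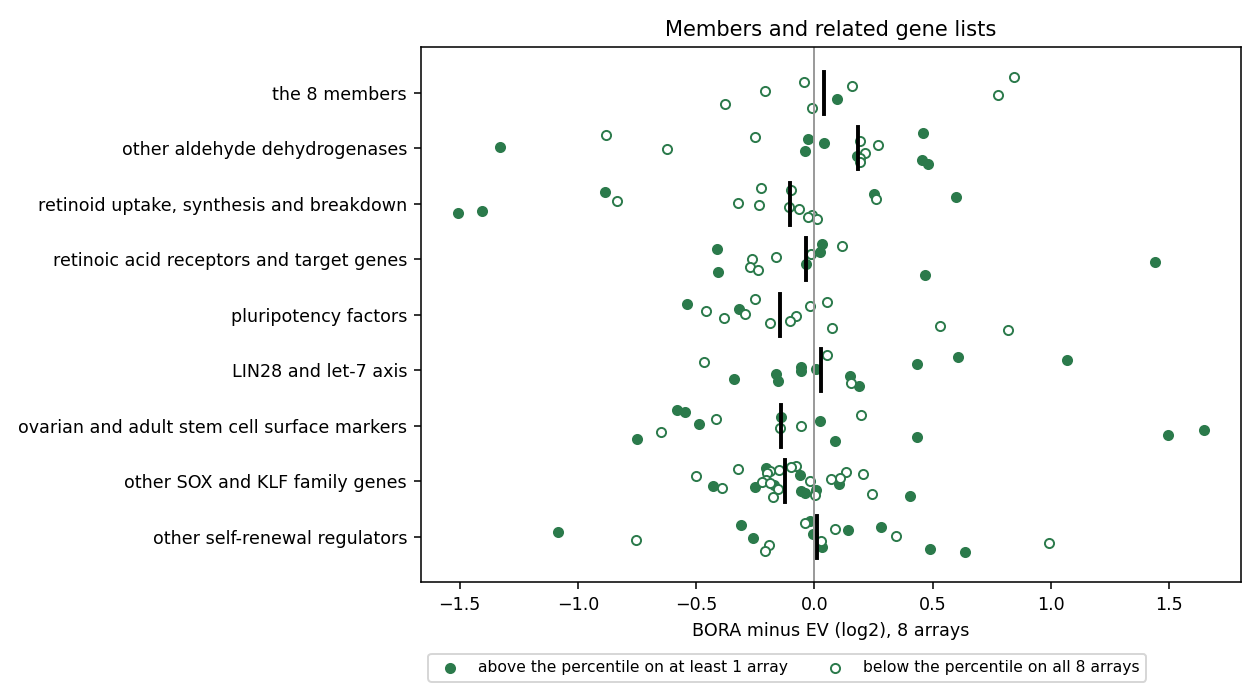
Difference of each measured gene (BORA minus EV, log2, 8 arrays, horizontal axis) in the set of 8 members and in 8 related lists, where 0 genes passed the limma threshold. Filled points exceeded the negative control percentile on at least 1 array, open points on none, and black bars are medians, which lie between -0.15 and 0.19.

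Markers of other cells were read beside these values, with the 2 genes of the largest range named from each list. The clusters carry human gene symbols while the host was the mouse. Whether a marker's value came from human or mouse RNA was not tested. In the squamous list S100A8 was at 3.19, 3.25, 3.26 and 3.50 in BORA tumours, against 15.03, 5.96, 3.66 and 3.95 in EV tumours. Its BORA values lay below all EV values (log2 difference -3.85 over 8 arrays and -1.22 over 7, limma adjusted p = 0.434 and 0.224). Only the value of EV replicate 1 exceeded the percentile, and the others lay at background levels. DSG3 was at 4.64, 4.03, 3.63 and 5.07 in BORA tumours, against 15.01, 7.01, 4.78 and 4.66 in EV tumours, and its groups overlapped (-3.52 over 8 arrays and -1.14 over 7). For DSG3 too, only EV replicate 1 exceeded the percentile. All 13 squamous markers were lower in BORA tumours over 8 arrays, and 7 of 13 over 7. Of 8 measured endothelial markers 0 passed and 6 lay below the percentile on all arrays, VWF and KDR among them. The summed endothelial signal was 9.09 to 9.67 on the log2 scale in BORA tumours, against 8.50 to 9.26 in EV replicates 2 to 4 and 8.56 in EV replicate 1. Its genes CDH5 and PECAM1 had log2 differences of 2.28 and 1.56, with no overlap between the groups (limma adjusted p = 0.129 and 0.137). CDH5 exceeded the percentile on 2 BORA arrays and PECAM1 on 3, and both on 0 EV arrays, so their EV levels are only bounds. CDH5 and PECAM1 were the 2 endothelial markers above 0, and the median of the list was -0.26. The other 6, those below the percentile on all arrays, had lower means in BORA tumours, as had 69.1% of all dim clusters. The summed leukocyte signal of 9 genes was 11.69 to 12.31 in BORA tumours, against 12.70 to 13.25 in EV replicates 2 to 4 and 11.12 in EV replicate 1. PTPRC fell without EV replicate 1 (log2 difference -2.07, limma adjusted p = 0.0194) and did not pass over 8 arrays (-0.68), and AIF1 was at -0.48. The PTPRC value of EV replicate 1, 6.91, lay below the percentile of that array. Of the 9 leukocyte markers 8 had lower means in BORA tumours, with a median of -0.43, where 53.4% of all clusters were lower. But 6 of the 9, AIF1 among them, lay below the percentile on all 8 arrays. Of all such dim clusters 69.1% were lower in BORA tumours. The fibroblast and pericyte signal of 8 genes was 15.17 to 15.69 in BORA tumours, against 15.22 to 15.82 in EV replicates 2 to 4 and 14.84 in EV replicate 1. Of these genes 4 had higher and 4 lower means in BORA tumours (3 and 5 over 7 arrays), with a median of -0.067 over 8 arrays and -0.15 over 7. LUM was at 1.14 (limma adjusted p = 0.576) and, without EV replicate 1, at 2.07 with no overlap between the groups (limma adjusted p = 0.112). The LUM value of EV replicate 4 lay below the percentile. COL1A1 was at 0.44, and at 0.19 without EV replicate 1. The ovarian and simple epithelial list had 6 genes with higher and 5 with lower means in BORA tumours, with a median of 0.017 (4 and 7 over 7 arrays, median -0.17). Its gene CDH1 was at -0.90 over 8 arrays and 0.037 without EV replicate 1, and MSLN at -0.42 and -0.94, neither past the threshold. The CDH1 value of EV replicate 4 lay below the percentile, and MSLN exceeded it on 1 BORA array and 2 EV arrays. These sums are led by their brightest genes, and the part of such cells in the members' values was not tested.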

How the data were processed

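The labels gave each sample's group and replicate number. The authors deposited 1 processed value for each row of each array. Per the submitters' processing notes they were made with Affymetrix Expression Console; how background was corrected, probes summarised and arrays normalized is not given in the sources used here. These deposited values were read as log2 signals from their range, so folds hold only on that reading. The series' description names a different array from the one the row identifiers belong to. Symbols came from the supplied platform annotation, which lists 1 symbol for each of 17709 clusters and several for 0, and were updated through gene identifiers, all of which matched GRCh38.p14. A further 3739 clusters are unnamed here. At most 0.0123% of values were identical between any pair of arrays.

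No further normalization or filter was applied. limma 3.58.1 (R 4.3.3; lmFit and eBayes, no covariates) was fitted on all named clusters, BORA minus EV, with Benjamini-Hochberg adjustment over all of them and a threshold of 0.05. Summed signals are log2 of summed linear signals. Members and lists were chosen with earlier results of these data known. Named genes were BORA, the members, list genes past the threshold or otherwise the 2 smallest p of a list, the 2 marker genes with the largest range of each cell type list, and the 3 profiles nearest to a member above the percentile. 136 of 149 pathway entries had a named cluster, 1 as PLAAT4 and 1 as CRIPTO in place of an older symbol. The alternatives were a replicate block, 2 normalizations, a variance trend, array weights, 2 filters on dim clusters, all rows, averaging the clusters of each gene, the unmoderated test, another threshold, another percentile and leaving out each array. The test was checked on simulated data. The number of arrays limits the precision.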

Additional observations from a re-analysis of the deposited data

How the results depend on the processing

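In every setting run, 0 of the members it kept passed an adjusted p of 0.05 in limma. All settings but the filters on dim clusters kept all 8 members. Over the alternatives to the fit on 8 arrays, those leaving out 1 array included, the adjusted p of ALDH1A1 ran from 0.092 to 0.306. Over those to the fit on 7 arrays, again with 1 array left out in some, it ran from 0.081 to 0.212. That of SOX2 ran from 0.148 to 0.449 and from 0.123 to 0.421. ALDH1A1 and SOX2 kept a higher value in BORA tumours throughout. Differences near 0 changed sign. After quantile normalization SOX9 was at -0.012 and LIN28B at 0.12 over 8 arrays, and PROM1 at 0.084 and LIN28B at 0.13 over 7. With array weights LIN28B was at 0.020. Leaving out 1 of the 8 arrays gave -0.032 to 0.28 for SOX9, -0.086 to 0.074 for LIN28B and -0.21 to 0.11 for ALDH1A2. Leaving out 1 of the 7 gave -0.12 to 0.12 for LIN28B, -0.25 to 0.24 for ALDH1A2, -0.16 to 0.18 for PROM1 and -0.059 to 0.15 for ALDH1A3. The causes were not tested. Above the 99th percentile of the negative controls 0 members lay on all arrays, while SOX9 exceeded the 95th. The filter on clusters above the percentile on at least 4 arrays kept SOX9 alone of the members. That on clusters above the median level kept SOX9 and ALDH1A2.

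The replicate numbers were not taken as pairs: deviations of same-numbered tumours correlated at -0.11 to 0.071. Of the BORA tumours only replicate 2 correlated best with the EV tumour of its own number. With the replicate number as a block no member's call changed, LIN28B was at 0.0056 over 7 arrays, and 1 cluster was higher. Over 8 arrays 18 clusters past the threshold were higher and 0 lower (1305 higher and 1269 lower at an unadjusted limma p under 0.05). The counts past the threshold became 43 and 5 with array weights, and 46 and 3 at a limma adjusted p under 0.1. Among clusters above the median level 9 were higher, and in the ordinary test without moderation 1 was higher. An intensity trend with robust fitting, and all rows of the table, each gave 1 lower. Leaving out 1 array gave 1 to 77 higher and 0 to 14 lower, with 4, 2, 4 and 1 higher without BORA replicates 1 to 4 and 77, 3, 2 and 9 without EV replicates 1 to 4. The levels of the 7 members under the negative controls' 95th percentile are not told apart here from background.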

Other observations

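These genes were picked once their values had been seen. Several retinoid genes were highest in EV replicate 1. CRABP2, which carries retinoic acid to its receptors, was at 6.65 to 8.02 in BORA tumours, against 14.38 in EV replicate 1 and 6.41 to 8.65 in EV replicates 2 to 4. FABP5, a fatty acid carrier that also binds retinoic acid, was at 11.03 to 11.39 in BORA tumours, against 17.14 in EV replicate 1 and 10.76 to 11.56 in the other EV tumours. LRAT, which esterifies retinol, was at 5.24 to 6.07 in BORA tumours, against 9.15 in EV replicate 1, and the other EV tumours did not exceed the highest BORA value. The receptor gene RARG was at 8.01 to 8.40 in BORA tumours, against 10.68 in EV replicate 1 and at most 8.49 in the other EV tumours. None of the 3 ALDH1A genes had its highest value in EV replicate 1, while SOX9, KLF4 and PROM1 did. Of the 8 members 3 were highest, 1 lowest and 4 in between in that array. The share of all clusters highest in it was not computed, so no excess is claimed for the genes named here.

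LGR5, a receptor of intestinal stem cells, separated the EV tumours from one another. It was at 10.16, 8.01, 9.32 and 8.28 in BORA tumours, against 9.68, 4.49, 4.27 and 10.75 in EV tumours, so that EV replicates 2 and 3 lay at background levels. Its log2 difference of 1.65 did not pass (limma adjusted p = 0.608). NT5E, the gene of the surface enzyme CD73, was at 14.41, 14.64, 14.75 and 14.43 in BORA tumours, against 10.18, 14.92, 12.92 and 14.24 in EV tumours, lowest in EV replicate 1.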
